A study of Mus musculus with 4 samples.

Results

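Oligodendrocytes are the myelin-forming glia of the brain. Each one wraps segments of several axons in layers of its own membrane, which speeds the conduction of impulses, and the cells arise from oligodendrocyte progenitor cells (OPC) that stay in the adult cortex. Mature cells make large amounts of myelin proteins such as MBP, which holds the myelin layers together, and MOG, a protein of the outer myelin surface. They do not send axons to other brain regions, so a virus that enters axon terminals has no axon of theirs to travel along.

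The cells described here are those that the authors annotated as oligodendrocytes in the ventromedial prefrontal cortex (vmPFC) of the mouse, 1773 of 20047 annotated cells. Every annotated cell was also found in the barcode table of its library, so none was lost in the join. The name rests on the authors' clusters and their markers, among them Mog. Expression of Mog and Mbp was not analysed here, because the tables used hold totals per cell and not the counts of single genes. The annotation names Leiden clusters, so that all 1773 cells lie in 1 such cluster follows from how they were chosen and is no check of the name. Of them, 1770 also lay in 1 Louvain cluster of the same cells.

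All animals were male C57BL/6 mice that received, at 8 weeks of age and in 1 hemisphere, 5 rAAV2-retro viruses that express EGFP with a target-specific barcode from a short CAG promoter. The targets were the agranular insula (AI), dorsomedial striatum (DMS), mediodorsal thalamus (MD), basolateral amygdala (BLA) and lateral hypothalamus (LH). Cells of the prelimbic and infralimbic areas were dissociated from 3 mice without sorting, 1 library for each mouse, and from 3 other mice whose FAC-sorted EGFP-positive cells were pooled into 1 library, so that single animals cannot be told apart there. Mice without virus were not analysed here, and the labels name the material as labelled neurons although glia were sequenced with it. The unsorted mice therefore give a mean and an SD (n = 3), the sorted library has no replicate, and cells of 1 mouse are not replicates.

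The viral mRNA of a cell is read as a 15-base barcode. The 5 barcodes are shown because all counts of viral RNA in the oligodendrocytes rest on telling them apart. Capitals mark the positions at which a barcode has a base that none of the others has there.
AI: CtgCAccgaCGcAtt
DMS: gaAggcAcagacTtt
MD: gttggcTgCAaTcCa
BLA: AagAcgccgTCGcaa
LH: TatTcgGAggacGaC
Each differed from its closest partner at 10 of 15 positions, and a read was matched with at most 2 mismatches. In every library these 5 sequences were the most frequent of all 15-base sequences read, with DMS the most frequent and BLA the least.

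Oligodendrocytes made up nearly the same part of each unsorted library. They numbered 626 of 6614 cells in mouse 1, 586 of 5966 in mouse 2 and 550 of 5775 in mouse 3, or 9.46%, 9.82% and 9.52%. The mean was 9.60% ± 0.192 (SD, n = 3), and each library's exact 95% binomial interval, which covers counting error only, included the values of the other two. There was about 1 oligodendrocyte for each OPC (0.994 ± 0.0407 cells), 3.61 ± 0.576 for each astrocyte and 0.609 ± 0.00993 for each microglial cell. The ratio to the progenitors and microglia thus varied little between mice, whereas that to astrocytes varied more. These are ratios of cells left after dissociation and the authors' filters, among them a limit on mitochondrial share, and not of cells in the tissue.

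After sorting for EGFP, few were present. The FAC-sorted library held 11 oligodendrocytes among 1692 cells, 0.650% (exact 95% interval, 0.325% to 1.16%), which was 14.8 times lower than the mean of the unsorted mice. The difference is 8.95 percentage points, beside an SD of 0.192 between the unsorted mice, and the sorted library has no replicate. An exact permutation test of 1 library against 3 cannot give a p below 0.25, so its result is not used here. The gap depended on the cells counted. Among cells with at most 10% mitochondrial UMIs the share was 4.39%, 4.17% and 4.19% in the unsorted mice and 0.699% after sorting, a difference of -3.55 points. Among the non-neuronal cells alone the share differed less, with 18.1% ± 0.272 in the unsorted mice and 15.1% after sorting, where 57 of the 73 non-neuronal cells were microglia. The 15.1% rests on 11 cells of 1 library and was given no interval, so this gap is not read as a difference. After sorting there were 0.193 oligodendrocytes per microglial cell, fewer than without sorting, but 2.75 per OPC, of which 4 were present, and no astrocyte.

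Oligodendrocytes carried somewhat more RNA than OPC, astrocytes and microglia, with fewer detected genes than OPC. A UMI tags 1 cDNA molecule before amplification, so that its copies count once. The median was 4587, 4775 and 4890 transcriptome UMIs per oligodendrocyte in mice 1, 2 and 3. In the same mice it was 4049, 4217 and 4343 in OPC, 3395, 3385 and 3359 in astrocytes and 4108, 4106 and 4314 in microglia. Oligodendrocytes had the higher median in all 3 mice in each of these comparisons, and their range did not overlap with that of any of the other 3 types. The ratio was 1.13 ± 0.00385 (SD, n = 3) against OPC, 1.41 ± 0.0525 against astrocytes and 1.14 ± 0.0234 against microglia. The authors set activated microglia apart as a type of 30, 26 and 28 cells, whose medians of 4522, 4873 and 5399.5 UMIs lay on both sides of those of the oligodendrocytes. The size of the difference depended on the cells and the summary. It was 548 UMIs from OPC, 1371 from astrocytes and 575 from microglia for medians, 1234, 2211 and 1489 for means over cells, and 1083, 1845 and 1156 for medians of cells with at most 10% mitochondrial UMIs.

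The number of detected genes was 1957, 1981.5 and 2024.5 per oligodendrocyte (medians of mice 1, 2 and 3). OPC had 2320, 2358 and 2387 genes despite fewer UMIs, and astrocytes had 1774, 1754 and 1739. Oligodendrocytes thus lay below OPC by 367 ± 7.94 genes and above astrocytes by 232 ± 51.4 and microglia by 347 ± 14.3. For means over cells these differences were -194, 410 and 550 genes. Among cells with 2000 to 8000 transcriptome UMIs, the difference from OPC was -401 ± 9.17 genes. This window did not equalise depth, since the median oligodendrocyte in it still had 420 ± 28.9 more UMIs than OPC, 1173 ± 143 more than astrocytes and 314 ± 99.5 more than microglia. With 4000 to 6000 UMIs, the unsorted mice together had a median of 1995 genes in 1042 oligodendrocytes and 2546 genes in 833 OPC.

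By the median over cells, mitochondrial transcripts took a larger share of the RNA in oligodendrocytes than in any of the other 7 cell types in each of the unsorted mice. The median was 10.6%, 10.9% and 10.8% in mice 1, 2 and 3. OPC had 7.19%, 7.22% and 7.10%, microglia 7.21%, 7.18% and 7.08%, and astrocytes 9.0%, 8.27% and 8.50%. The difference was 3.57 ± 0.177 percentage points from OPC, 2.16 ± 0.550 from astrocytes and 3.59 ± 0.206 from microglia. Within 2000 to 8000 UMIs it was 3.80 ± 0.126 from OPC and 3.83 ± 0.188 from microglia. High mitochondrial shares are commonly used to discard damaged cells. Of the oligodendrocytes of the unsorted mice, 62.9% ± 1.58 (SD, n = 3) had over 10%, against 10.8% ± 1.05 of OPC. Keeping only cells with at most 10% would leave 242, 208 and 204 oligodendrocytes in mice 1, 2 and 3. Ribosomal protein transcripts, in contrast, held an intermediate place. They took 5.06% ± 0.166 of the UMIs of oligodendrocytes, 3.99% ± 0.219 in OPC, 2.28% ± 0.147 in astrocytes and 16.1% ± 0.605 in microglia.

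For each of these 9 comparisons of RNA content, the oligodendrocytes differed in the same direction in 3 of 3 mice. The exact two-sided sign-flip test over mice gave p = 0.25 each, the smallest that 3 mice allow, and 0.263 after Benjamini-Hochberg adjustment over the 20 main comparisons of oligodendrocytes, which leaves out those within depth windows and the rates of single barcodes. No comparison could therefore pass a threshold of 0.05, and each is given with its spread.

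**Figure D1:**
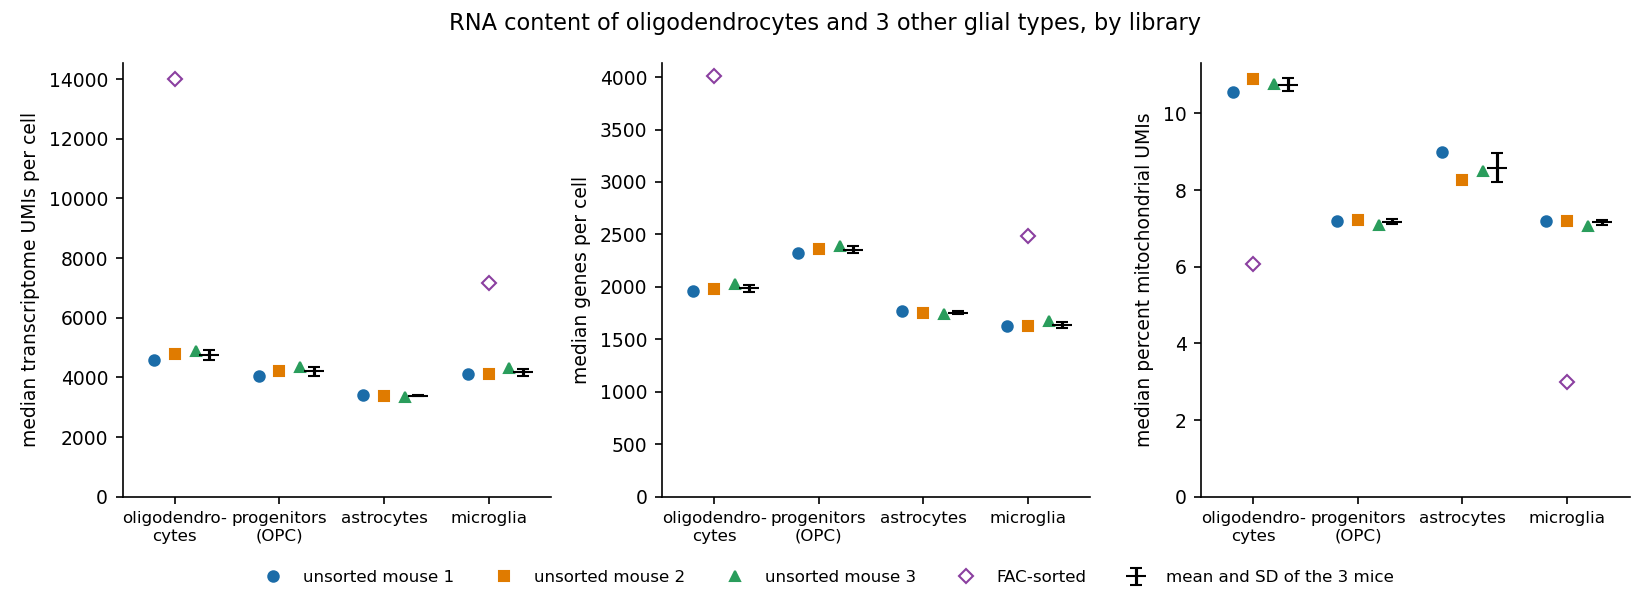
Median transcriptome UMIs, detected genes and percent of mitochondrial UMIs per cell (y axes, from 0) for the 4 glial types (x axis), with 1 filled point for each unsorted mouse, a bar for their mean and SD, and an open diamond for the FAC-sorted library where it held at least 10 cells of the type. Oligodendrocytes lie highest for UMIs (4587 to 4890) and mitochondrial share (10.6% to 10.9%) in the unsorted mice and below OPC but above astrocytes and microglia for genes.

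Barcode UMIs were found in nearly all oligodendrocytes, as in all other cell types, and most of them were DMS. Recounted from the reads with single UMIs kept, 98.98% of 1762 oligodendrocytes of the unsorted mice had at least 1 barcode UMI. DMS was found in 96.5% of them (exact 95% interval, 95.5% to 97.3%), MD in 66.0% (63.7% to 68.2%), LH in 58.3% (56.0% to 60.7%), AI in 40.2% (37.9% to 42.5%) and BLA in 20.6% (18.7% to 22.6%). These intervals pool the cells of all unsorted mice and cover counting error only. They do not measure the spread between mice, which was wider for MD, LH and AI in the depth window described next. Microglia, which also have no axon, had DMS in 95.9% of 2894 cells, MD in 68.5%, LH in 60.4%, AI in 44.1% and BLA in 21.2%. The median depth was 4760 transcriptome UMIs in the oligodendrocytes and 4158 in the microglia. Shares of this size were thus found in both types and are not read as labelling here. As all mice received the viruses, free viral RNA and uptake by glia cannot be told apart in these values. Excitatory neurons, with a median depth of 21548.5, had BLA in 74.1% and AI in 90.5% of 7194 cells.

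Within the same window of depth, a barcode UMI was found in fewer oligodendrocytes than OPC for MD, LH and AI, and than microglia for MD. These shares also count UMIs of a single read, and none with at least 2 reads is given here. With 2000 to 8000 transcriptome UMIs, MD was found in 50.3%, 69.9% and 72.8% of the oligodendrocytes of mice 1, 2 and 3. OPC had MD in 64.8%, 77.6% and 81.0% of the cells and microglia in 60.3%, 75.4% and 76.8%. The oligodendrocytes had the lower share in 3 of 3 mice in both comparisons, although their median depth was the higher one. Against OPC the share was also lower for LH, with 48.6%, 63.7% and 55.4% of the oligodendrocytes and 60.2%, 68.9% and 61.7% of OPC. For AI it was 26.5%, 47.5% and 39.8% of the oligodendrocytes and 34.8%, 50.1% and 47.4% of OPC.

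The deposited tables gave a mean of 6.30, 11.2 and 9.09 barcode UMIs per oligodendrocyte in mice 1, 2 and 3, and a median of 4, 7 and 6. Mouse 1 was lowest in every glial type, with 5.41 UMIs per OPC, 4.86 per astrocyte and 5.12 per microglial cell, and it also had the fewest projectome reads, 20443286 against 30613665 and 32895529. Oligodendrocytes had the higher mean in 3 of 3 mice against astrocytes (by 2.18 ± 1.12 UMIs) and microglia (by 1.24 ± 0.927) and in 2 of 3 against OPC (by 0.308 ± 1.24). The difference from OPC was below its SD, and the others were less than 2 times theirs. Without mouse 2 the difference from microglia was 0.762, and that from OPC turned to -0.113. Without mouse 3 the difference from OPC was 1.02, and without mouse 1 it was 0.0195. The exact sign-flip p was 0.25, 0.25 and 0.75.

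The sign against OPC and microglia rested on the cells with the most RNA. Within 2000 to 8000 transcriptome UMIs the mean was 4.36, 8.17 and 7.40 barcode UMIs in oligodendrocytes, 5.34, 9.24 and 9.37 in OPC and 5.31, 9.33 and 9.08 in microglia. There the oligodendrocytes had fewer in 3 of 3 mice, by 1.34 ± 0.548 and 1.26 ± 0.374 UMIs. Against astrocytes, with 5.01, 7.89 and 7.83, the sign varied between mice and the difference was -0.263 ± 0.486. When the 5% of cells with the most transcriptome UMIs of each type and library were left out, an alternative chosen after seeing the data, the oligodendrocytes had 0.823 ± 0.569 fewer barcode UMIs than OPC and 0.451 ± 0.402 fewer than microglia, but still 0.500 ± 0.610 more than astrocytes.

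Per 10000 transcriptome UMIs, oligodendrocytes held less viral barcode than OPC, astrocytes and microglia in every unsorted mouse by the deposited counts. They had 11.3, 19.4 and 16.0 barcode UMIs per 10000 in mice 1, 2 and 3. OPC had 12.9, 22.1 and 22.4, astrocytes 13.5, 22.8 and 22.0, and microglia 12.4, 21.8 and 20.3. The ranges of the types overlap, because the mice differ more than the types do, but within each mouse the oligodendrocytes were lowest of these 4. The few activated microglia had 11.2, 16.3 and 16.6, below the oligodendrocytes in mice 1 and 2. The level of the oligodendrocytes was 0.824 ± 0.0947 times that of OPC, 0.806 ± 0.0661 times that of astrocytes and 0.862 ± 0.0650 times that of microglia (ratio within mouse, mean ± SD, n = 3). The difference from OPC was -3.54 barcode UMIs per 10000 over the mice and -2.12 without mouse 3. The difference from microglia was -2.61 and, without mouse 3, -1.76. The exact sign-flip p was 0.25 in each case and 0.263 adjusted. Within 2000 to 8000 transcriptome UMIs the differences were larger, -4.69 ± 1.29, -5.40 ± 1.29 and -4.14 ± 1.01 barcode UMIs per 10000 in the same order. This order did not hold for UMIs of at least 2 reads. The difference was then -0.498 ± 1.30 from OPC, with oligodendrocytes higher in 2 of 3 mice, -0.260 ± 0.587 from astrocytes, with oligodendrocytes higher in 1 of 3, and 0.101 ± 0.625 from microglia, with oligodendrocytes higher in 2 of 3, each below its SD. Excitatory neurons had 39.6, 50.2 and 49.8 barcode UMIs per 10000 in the same mice.

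**Figure D2:**
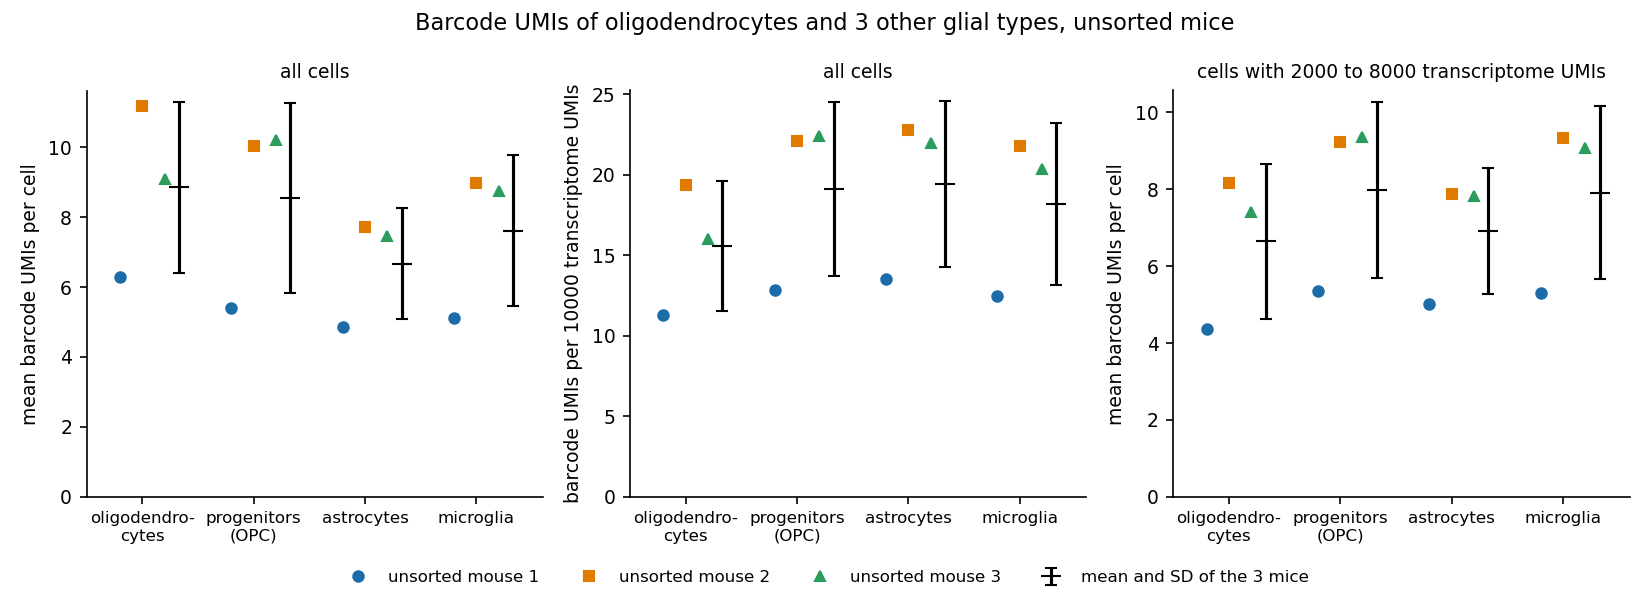
Mean barcode UMIs per cell and barcode UMIs per 10000 transcriptome UMIs over all cells (left and middle), and mean barcode UMIs per cell among cells with 2000 to 8000 transcriptome UMIs (right), for the 4 glial types in the 3 unsorted mice, with the mean and SD beside the points. Over all cells the oligodendrocytes have a mean of 6.30 to 11.2 barcode UMIs, and within the window they have 4.36 to 8.17, below OPC and microglia in each mouse.

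Barcode by barcode, DMS held most of this difference, with a mean of -2.70 of the -3.54 barcode UMIs per 10000 by which oligodendrocytes differed from OPC. DMS also made up 61.3% of all barcode UMIs in oligodendrocytes and 64.3% in OPC (means of the unsorted mice). Most of any general difference would thus lie in DMS. Per 10000 transcriptome UMIs, oligodendrocytes had 6.85, 11.8 and 10.0 DMS UMIs in mice 1, 2 and 3, against 8.38, 14.2 and 14.2 in OPC and 8.07, 14.1 and 13.3 in microglia. AI was also lower in 3 of 3 mice against each of OPC, astrocytes and microglia, with 0.889, 1.70 and 1.49 in oligodendrocytes and 1.13, 1.86 and 1.85 in OPC. For MD the order varied, since oligodendrocytes were higher than OPC in 2 of 3 mice (1.93, 3.33 and 2.71 against 1.69, 3.33 and 3.86). In mouse 1, 2 cells with a barcode above its threshold held 166 and 112 of the 672 MD UMIs of oligodendrocytes. In mouse 2 the rates were 3.332 and 3.331, so neither lead is read as a difference of the types. BLA, at 0.184, 0.331 and 0.205 per 10000, was too rare to order, with 64, 112 and 64 UMIs in all oligodendrocytes of a mouse. LH was lower than in OPC in 3 of 3 mice and lower than in microglia in 2 of 3.

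The mix of barcodes in oligodendrocytes was not that of the excitatory neurons of the same library. DMS made up 60.6%, 60.9% and 62.5% of the barcode UMIs of oligodendrocytes in mice 1, 2 and 3, and 43.9%, 43.6% and 45.0% of those of excitatory neurons. The difference was 17.2 ± 0.481 percentage points by the deposited counts, and its size depended on how UMIs were counted. DMS also led in other glia, with 65.2%, 64.3% and 63.3% in OPC, 62.9%, 63.1% and 68.0% in astrocytes and 64.9%, 64.8% and 65.2% in microglia, so a larger DMS share than in excitatory neurons was not particular to oligodendrocytes. Their own share lay below those of OPC, astrocytes and microglia by 2.94 ± 1.99, 3.32 ± 1.89 and 3.64 ± 0.833 points, lower in 3 of 3 mice. This order did not hold among cells with at most 20000 transcriptome UMIs, where the differences were 2.34 ± 2.06, 2.07 ± 3.99 and 1.75 ± 2.31 points. There the oligodendrocytes were higher in 3 of 3, 2 of 3 and 2 of 3 mice, with the SD above the mean for astrocytes and microglia. Without cells above a threshold the differences were 0.955 ± 2.84, 0.875 ± 3.57 and 0.558 ± 2.78 points, each below its SD. For DMS and MD, inhibitory neurons lay closer to the oligodendrocytes, with 56.5%, 60.4% and 59.4% DMS and 15.2%, 17.1% and 17.5% MD. Next to the excitatory neurons, the other barcodes took less in oligodendrocytes. MD was lower by 7.20 ± 0.397 points, LH by 6.12 ± 0.265, BLA by 2.56 ± 0.810 and AI by 1.30 ± 0.539, each in 3 of 3 mice (exact sign-flip p = 0.25, 0.263 adjusted). For AI the sign turned, to 0.766 points higher, when the cells of both types with a barcode above its threshold were left out, and to 0.448 points higher, in 2 of 3 mice, among cells of 2000 to 8000 transcriptome UMIs, an alternative chosen after seeing the data. In this window LH differed by -11.2 ± 0.731 points, DMS by 20.0 ± 1.70, MD by -7.29 ± 4.08 and BLA by -2.03 ± 1.21. The deposited tables list a single UMI of a cell as 0 for every barcode but AI, which lowers the rare barcodes most where counts are low. With single UMIs kept, DMS was 54.9%, 56.8% and 57.5% and LH 15.5%, 13.4% and 12.5% in the oligodendrocytes. The differences from excitatory neurons then kept their sign but were smaller for 4 of the 5 barcodes, with 12.4 points for DMS, -5.34 for MD, -3.74 for LH and -1.20 for BLA. With each shared UMI given to its leading barcode, DMS differed by 9.30 ± 1.77 points, and with UMIs of at least 2 reads by 8.22 ± 3.78, in both cases higher in 3 of 3 mice. LH differed by -2.57 ± 1.16 and -2.88 ± 2.30 points and MD by -6.07 ± 1.31 and -3.76 ± 1.92 under the same rules, lower in 3 of 3 mice. The BLA difference was then -0.131 ± 0.815 and -0.475 ± 1.31 points, and the AI difference -0.533 ± 1.26 and -1.10 ± 1.14, with the sign varying between mice.

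By the deposited counts, DMS took a smaller share of the barcode UMIs in the unsorted oligodendrocytes with the most RNA than in the rest. These counts list a single UMI as 0 for every barcode but AI. That lowers the rare barcodes most where counts are low, so the size of the gap may depend on it. No mix by depth with single UMIs kept is given here. Over 20000 transcriptome UMIs, a limit chosen after seeing the data, were 11, 9 and 8 cells of mice 1, 2 and 3, or 1.58% ± 0.157 of the oligodendrocytes. OPC had 1, 4 and 1 such cells, and astrocytes and microglia had 0. In the 28 oligodendrocytes, DMS made up 33.6%, 44.8% and 37.6% of the barcode UMIs and MD 35.4%, 30.5% and 24.6%. In the oligodendrocytes with at most 20000, DMS was 69.2%, 64.6% and 66.4% and MD 11.2%, 14.2% and 15.7%, next to 64.9%, 64.8% and 65.2% and 13.5%, 14.6% and 16.5% in microglia. Of the 2845 barcode UMIs of the deep cells, 1562 lay in 5 cells that had a barcode above its threshold (described further on). Without these 5, an alternative chosen after seeing the data, the other 23 deep cells had 55.1%, 40.9% and 49.3% DMS and 18.8%, 33.9% and 28.4% MD in mice 1, 2 and 3. A lower DMS share over 20000 UMIs was not particular to oligodendrocytes. Over all 4 libraries it was 54.4% against 64.2% up to that depth in OPC and 44.0% against 65.7% in endothelial cells. Inhibitory neurons had 55.1% against 60.0% and excitatory neurons 42.0% against 49.3%.

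**Figure D3:**
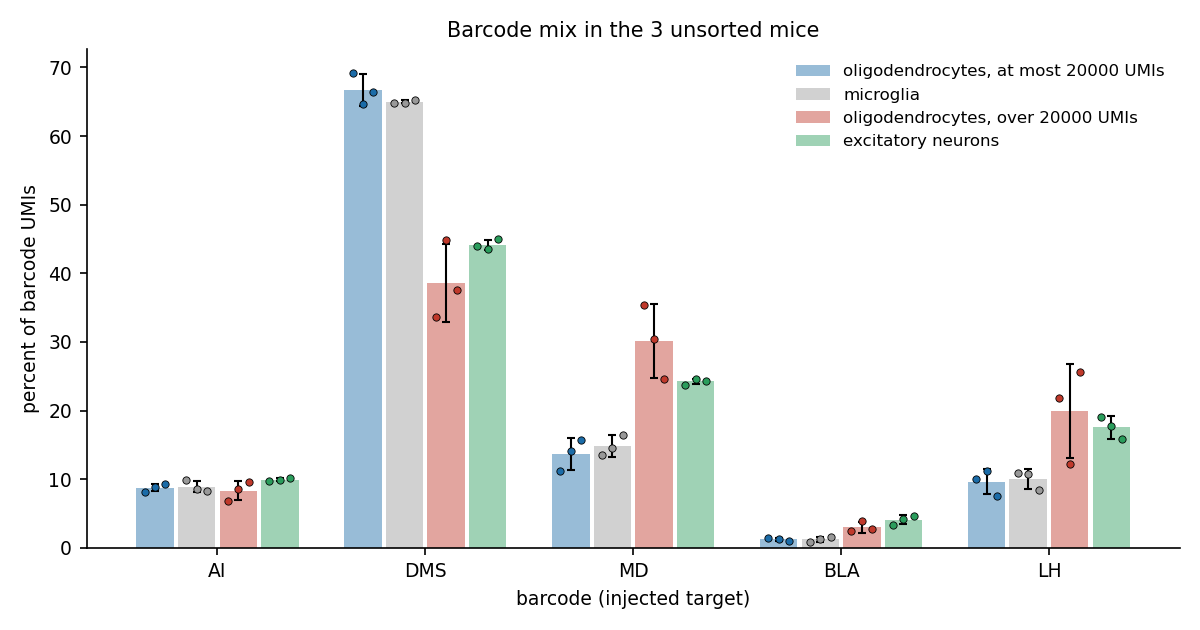
Percent of barcode UMIs (y axis, from 0) held by each of the 5 barcodes (x axis) in oligodendrocytes with at most and with over 20000 transcriptome UMIs, microglia and excitatory neurons, with bars for the mean, error bars for the SD and points for the 3 unsorted mice. By the deposited counts, which list most single UMIs as 0, DMS is 64.6% to 69.2% in the oligodendrocytes with at most 20000 UMIs. It is 33.6% to 44.8% in the deep ones, where 5 cells hold 1562 of 2845 barcode UMIs.

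Over the unsorted mice, the median of the deep cells was 6731 genes, against 1995 in oligodendrocytes with 4000 to 6000 UMIs. Their gene counts follow largely from the choice by UMIs, since Spearman's rho between UMIs and genes was 0.975 to 0.982 within mice. Excitatory neurons of all depths had 5544, 5630 and 5686 genes in mice 1, 2 and 3. Over all 4 libraries, the median over 20000 UMIs was 6557.5 genes in 32 oligodendrocytes and 6078 in 5797 excitatory neurons. The median mitochondrial share of the deep oligodendrocytes of the unsorted mice was 6.00%, against 6.48%, 6.47% and 6.45% in excitatory neurons of all depths. They made up 1.59% of the unsorted oligodendrocytes and held 18.4% of their barcode UMIs and 25.3% of their projectome reads. Per 10000 transcriptome UMIs they had 31.8 barcode UMIs, whereas the cells in the bins from 2000 to 20000 had between 13 and 16.2. Without the 5 cells the rate was 17.9 over the mice and 11.5, 24.8 and 18.5 in mice 1, 2 and 3, while the medians were 6663 genes and 6.01% mitochondrial UMIs, so the level of barcode in the deep cells rested largely on the 5. Cells over this depth were also found among OPC and endothelial cells. Over all 4 libraries, 8 OPC had a median of 4914.5 genes, 54.4% DMS, 21.8% MD and 20.1 barcode UMIs per 10000. Over all 4 libraries, 57 endothelial cells had over 20000 UMIs, with a median of 6323 genes, 44.0% DMS, 26.3% MD and 26.2 barcode UMIs per 10000. The authors discarded cells with more than 8000 genes as potential doublets, and no doublet caller could be run here without gene counts. Whether a deep cell is 1 cell or 2 cells in 1 droplet was not tested.

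Below that depth, barcode UMIs followed the RNA content of the oligodendrocyte. The mean was 4.54 barcode UMIs in the 350 cells with 2000 to 4000 transcriptome UMIs, 6.61 in the 1042 cells with 4000 to 6000, 10.9 in the 163 cells with 6000 to 8000 and 15.6 in the 149 cells with 8000 to 20000. The rate per 10000 was 13, 13.7, 16.2 and 13.7 over these bins, so it did not climb with depth. Mitochondrial share went the other way, with medians of 12.0%, 10.9%, 9.29% and 8.91%. Across all oligodendrocytes of 1 mouse, the deep ones included, Spearman's rho between transcriptome and barcode UMIs was 0.403, 0.548 and 0.378 for 626, 586 and 550 cells, which share their library.

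In the reads, the viral signal of the oligodendrocytes was thin. The median oligodendrocyte had 96, 163 and 162.5 projectome reads in mice 1, 2 and 3. Of the reads of these cells, 58.3%, 57.3% and 66.7% matched none of the 5 barcodes with up to 2 mismatches, whereas 14.9%, 15.1% and 14.8% of the reads of excitatory neurons did not. Of the combinations of cell, barcode and UMI in oligodendrocytes, 75.9%, 74.3% and 71.9% rested on a single read, against 60.3%, 59.2% and 57.0% in excitatory neurons. OPC had 82.1%, 76.6% and 58.9% unmatched reads, so most reads were unmatched in both types. These shares are pooled over reads, so single cells weigh on them and the levels are not compared. In mouse 3, 1 OPC had 21867 projectome reads, and in mouse 1, 2 oligodendrocytes had 12882 and 14423. In 6.22%, 5.33% and 4.79% of the UMIs of oligodendrocytes the same UMI was found with more than 1 barcode of the cell, and the leading barcode held 97.6%, 97.8% and 97.0% of the reads of those UMIs. Giving each such UMI to its leading barcode brought the recounted mean from 7.23, 12.1 and 10.0 to 6.49, 10.9 and 9.13 UMIs per oligodendrocyte.

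A barcode was called above its threshold where its count in a cell exceeded 28 (AI), 101 (DMS), 114 (MD), 35 (BLA) or 103 (LH). These limits were set by the authors in part on non-neuronal cells, oligodendrocytes included, so that few of them pass is fixed in part by the limits. Above a threshold were 7 of 1773 oligodendrocytes, 0.395% (exact 95% interval, 0.159% to 0.812%). The authors had removed the cells with the most barcode UMIs beforehand, so this share holds only for the cells left. Over all annotated cells the share was 10.7%, and over the 8049 non-neuronal cells other than oligodendrocytes it was 0.0994%. By type, 3 of 1780 OPC passed, 0 of 495 astrocytes, which allows a share of up to 0.606%, and 0 of 2951 microglia, which allows up to 0.102%. The 7 cells fell on all unsorted mice, with 2 in mouse 1, 3 in mouse 2 and 2 in mouse 3, and 0 of the 11 sorted cells passed, which allows up to 27.3%.

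The limits were set for each barcode, so the number of oligodendrocytes that passes each one is also fixed in part. AI, DMS, MD and LH each passed in 2 oligodendrocytes, and BLA, whose highest count was 18, passed in none of 1773, which allows a share of up to 0.169%. BLA also passed in 0 cells of each other non-neuronal type and of inhibitory neurons. In excitatory neurons it passed in 1.90%, against 9.36% for AI, 14.6% for DMS, 6.48% for MD and 3.87% for LH. In 6 of the 7 cells 1 barcode passed, and in 1 cell both AI and MD did. In the 3 OPC above a threshold, AI passed once and DMS in 2 cells.

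In mouse 1, the first cell had 166 MD UMIs among 281 barcode UMIs, with 14 AI, 64 DMS, 5 BLA and 32 LH, at 32106 transcriptome UMIs and 6748 genes. The second had 130 LH UMIs and 112 MD UMIs, just below the MD limit, among 358, at 38279 transcriptome UMIs. It held the most barcode UMIs of any oligodendrocyte left in the annotation.
In mouse 2, the cell with 2 barcodes had 29 AI and 126 MD UMIs, at 41120 transcriptome UMIs, so its AI count exceeded the limit by 1. A cell with 212 DMS UMIs among 325 had 41669 transcriptome UMIs. The third cell had 127 DMS UMIs among 214 at 7409 transcriptome UMIs and 2830 genes. Both values were above the upper quartiles of the oligodendrocytes of its mouse, 5568.5 UMIs and 2235.25 genes.
In mouse 3, a cell with 130 LH UMIs among 298 had 26013 transcriptome UMIs, and its 28 AI UMIs equalled the AI limit without exceeding it. The other had 69 AI UMIs among 143 at 5151 transcriptome UMIs and 2060 genes, with a mitochondrial share of 14.4%. Its RNA content was near the median of its mouse, 4890, and its mitochondrial share was above the upper quartile of 12.6%.

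Thus 5 of the 7 cells had over 20000 transcriptome UMIs and more UMIs and genes than the median excitatory neuron of their library. They ranked between 2 and 7 in transcriptome UMIs among the oligodendrocytes of their mouse. Of all 32 oligodendrocytes over 20000 UMIs, 5 passed, 15.6%, and of the 1741 others 2 passed, 0.115%. These are descriptions, since the limit of 20000 was chosen after seeing the data and cells are not replicates. Among excitatory neurons the shares were 30.6% of 5797 cells and 11.4% of 3008 cells. Among OPC, 0 of 8 and 3 of 1772 passed, or 0.169% of the latter. Of the 57 endothelial cells over 20000 UMIs, 5 passed, 8.77%. The oligodendrocyte with the most RNA of all, with 45282 transcriptome UMIs in mouse 2, had 114 MD UMIs and did not pass by 1 UMI.

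When each shared UMI went to its leading barcode only, all 7 cells still passed, with 166 MD and 116 LH UMIs in mouse 1, 127 and 211 DMS and 123 MD in mouse 2, and 68 AI and 128 LH in mouse 3. The AI count of the cell with 2 barcodes was 10 under this rule, so that MD alone passed in it. The other barcodes of the 7 cells were reduced more, as in the DMS cell with 7409 transcriptome UMIs, where MD went from 35 to 2 UMIs and LH from 24 to 0. When UMIs had to have at least 2 reads, 2 cells passed, with the limits left as they were.

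**Figure D4:**
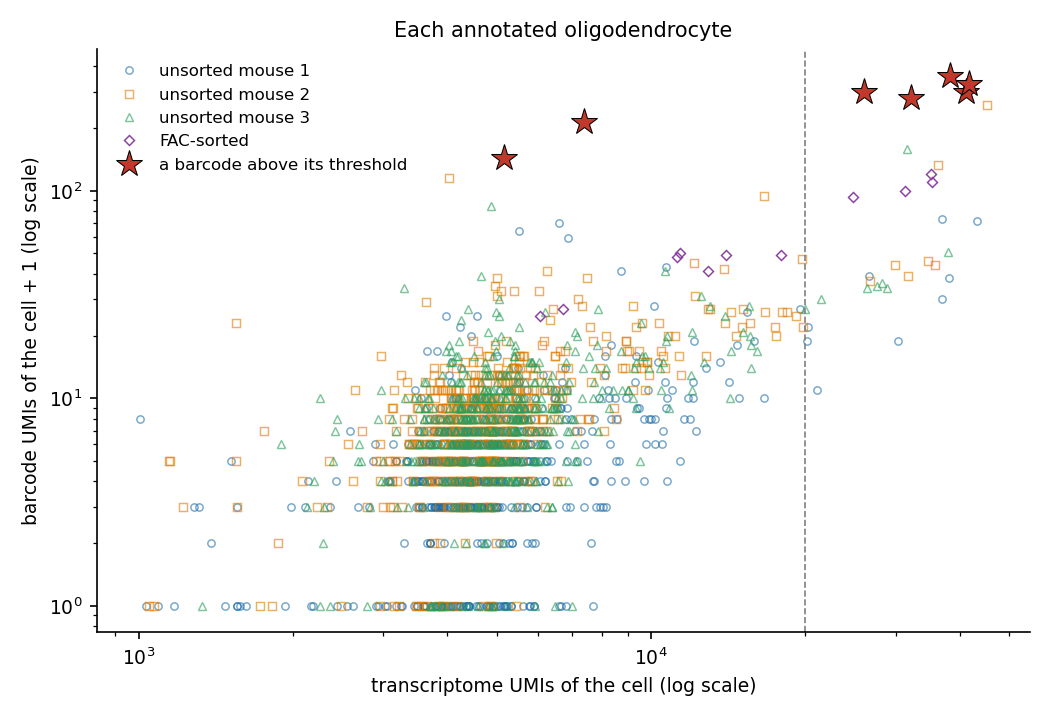
Barcode UMIs plus 1 against transcriptome UMIs (both log axes) for each of the 1773 oligodendrocytes, with the library as symbol, stars for the 7 cells above a threshold and a dashed line at 20000 transcriptome UMIs. Of the 7 stars, 5 lie to the right of the line, and the others are the DMS cell of mouse 2 and the AI cell of mouse 3.

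The 11 oligodendrocytes that went through the sort differed from the unsorted ones in depth and in barcode level. They had between 6064 and 35277 transcriptome UMIs with a median of 14006, and between 2383 and 6229 genes with a median of 4014. Their mitochondrial share had a median of 6.06%, and none was above 9.13%. Barcode UMIs ranged from 24 to 120 per cell with a median of 48, yet the highest single count of a barcode was 71, for DMS. The rate was 34.1 barcode UMIs per 10000 transcriptome UMIs over all 11 and lay between 26.7 and 43.0 in the single cells. Unsorted oligodendrocytes in the same range of depth had 12.6, 19.2 and 16.7 per 10000 in mice 1, 2 and 3, at lower median depths of 8318.5, 8443 and 7707. The same was seen in sorted microglia, with 42.5 per 10000 in 57 cells, and in sorted excitatory neurons, with 89.4. As in the unsorted mice, oligodendrocytes had the lower rate of the 2 glial types.

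DMS was the leading barcode in each of the 11 sorted oligodendrocytes, none of which had a barcode above its threshold. The mix over these cells was 50.7% DMS, 27.7% MD, 13.2% LH, 4.97% AI and 3.41% BLA, beside 50.6% DMS and 24.7% MD in sorted microglia and 41.9% and 27.9% in sorted excitatory neurons. Of the reads of the sorted oligodendrocytes, 91.2% matched no barcode. The matched combinations had 1.64 reads on average, against 10.6, 11.4 and 8.68 in the unsorted mice and 37.7 in sorted excitatory neurons. The median was 1 read in all of these sets. Single reads made up 68.6% of the combinations in sorted oligodendrocytes, against 75.9%, 74.3% and 71.9% in unsorted ones. The higher unsorted means thus rest on some combinations with many reads and not on the typical one. With 1 pooled library, sorting, mouse and sequencing depth cannot be told apart in these values.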

How the data were processed

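Projectome reads, barcode counts and cell annotations of 4 libraries were used. The authors made the barcode counts with a modified deMULTIplex, allowing 2 mismatches and without normalization. They listed a single UMI as 0 for every barcode but AI. The deposited counts of projectome reads per cell include unmatched reads. The authors' annotation, from Cell Ranger on mm10 (per the labels) with Seurat and Scanpy, gives counts of transcriptome UMIs and genes, the percent of mitochondrial and of ribosomal protein UMIs, and the cell type. It leaves out cells with the most barcode counts. The series-wide tables held 31 further columns that were left unused.

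Reads were matched again to the barcodes by Hamming distance. The recount differed from the deposited counts in 1604 of 8865 entries of oligodendrocytes, each a single UMI listed as 0. The thresholds were read from the authors' joined matrix. Of 19994 cell barcodes, 52 occurred in more than 1 library, and 9 oligodendrocytes carried one of these. Levels are medians or means per mouse, rates are ratios of sums, and the mouse is the replicate. Within-mouse differences were tested by an exact two-sided sign-flip test with Benjamini-Hochberg adjustment. Shares have exact (Clopper-Pearson) 95% intervals, and for a count of 0 the upper limit is 3 divided by the total. Intervals and limits cover counting error only. Alternatives were other counting rules, depth windows, thresholds, filters and mice left out. The cells, types and measures were chosen with earlier results of these data known. No gene was measured, so all 5 barcodes, 4 libraries and every oligodendrocyte above a threshold are named. The code was tested on simulated data. Python 3.11.15, numpy 2.4.6, pandas 2.3.3, scipy 1.17.1 and matplotlib 3.10.9 were used.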

Additional observations from a re-analysis of the deposited data

How the results depend on the processing

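Of 173 alternatives to 22 results, 158 kept the direction or stayed within the interval of the value reported. This count is not a measure of robustness. Leaving out 1 mouse cannot change a sign that all 3 mice share, so many of these outcomes were fixed in advance. A kept direction was judged by the sign of the mean alone, also where that mean was below its SD. The reversals were mostly those of mean barcode UMIs per cell. The difference from OPC was -0.00930 with shared UMIs given to the leading barcode, -0.330 without cells above a threshold, -1.34 within 2000 to 8000 transcriptome UMIs, -0.823 without the deepest 5% of cells and -1.33 for medians. It ranged from -0.113 without mouse 2 to 1.02 without mouse 3. The difference from astrocytes was -0.263 in this window. That from microglia was -1.26 in it, -0.451 without the deepest cells and -1 for medians. Per 10000 transcriptome UMIs, the differences for UMIs of at least 2 reads were -0.498 from OPC, -0.260 from astrocytes and 0.101 from microglia, each below its SD. By the deposited counts the difference from OPC was -2.12 without mouse 3. The AI share differed from that of excitatory neurons by 0.766 points without cells above a threshold and 0.448 within 2000 to 8000 UMIs. The MD share differed by -10.9 points without the deepest cells and -3.76 for UMIs of at least 2 reads. The share of oligodendrocytes after sorting minus that in unsorted mice was -3.55 points with at most 10% mitochondrial UMIs. Among non-neuronal cells it was -3.01 points, which rests on 11 sorted oligodendrocytes and is not read as a difference. In these alternatives the cause was not tested beyond the cells left out. The share of oligodendrocytes above a threshold was 3.44% (61 cells) with limits at the 99th percentile of the other non-neuronal cells and 0.113% for UMIs of at least 2 reads with the limits unchanged. With limits at the higher percentile that the authors used, taken over the same cells, 12 cells passed, or 0.677%. With single mice left out the share was 0.337% to 0.436%. No paired analysis was possible because the sorted library pools other mice than the unsorted ones. Gene expression was not analysed, so myelin genes and doublets could not be checked.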
